A study of Mus musculus with 6 samples.

Results

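The genes described here make cholesterol, sense it, move it within and out of the cell, or turn it over. They were chosen by symbol, as 31 named genes, and 30 of these 31 were among the 13886 protein-coding genes of the table of log2 CPM (read counts scaled to library size). *Tm7sf2*, a sterol reductase, was not listed, and its level is not given here. The 30 genes were 17 enzymes of synthesis (7 of the mevalonate arm, 10 of the squalene and sterol arm), 5 genes of the SREBP control circuit, 5 of intracellular transport and efflux, 2 lipoprotein receptors and 1 enzyme of cholesterol elimination.

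RNA bound to ribosomes was sequenced from the medial amygdala (MeA) of female Kiss1Cre+/Rpl22HA+/+ mice, in which Cre made by *Kiss1* cells puts an HA tag on the ribosomal protein Rpl22, so that ribosomes of *Kiss1* cells can be pulled down from micro-punches of tissue. The 6 libraries, each from 1 pool of 4 mice, were 3 from ovariectomized (OVX) females and 3 from OVX females given estradiol (E2) for 5 days. In both groups the ovaries were removed at 8 weeks of age, E2 was given for 4 days, and 7 days without E2 followed. By the paper's account, this first E2 treatment was meant to drive Cre and tagging in all these mice, whatever treatment came later. The capsule of the first 4 days of E2, given to both groups, held E2 diluted in cholesterol powder. The treated females then received a new E2 capsule, whose filling is not described separately, and the OVX females received none in its place. E2 and any cholesterol of that later capsule therefore cannot be told apart in any comparison below. A value in these libraries reflects the amount of an mRNA, the share of it on ribosomes, and the number of tagged cells, which bulk samples of this kind cannot separate. *Kiss1*, whose promoter drives Cre, was itself higher with E2 in both of its 2 listed gene models. The difference was 1.91 on the log2 scale in the model with the higher level (SE 0.26, adjusted p = 0.00475). In the other it was 5.05 (SE 1.09, adjusted p = 0.0943), with OVX values of only -5.82, -0.65 and 0.10 log2 CPM.

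Cells build cholesterol from acetyl-CoA in a long series of steps, first to mevalonate and the isoprenoid farnesyl diphosphate, then through squalene and lanosterol to the finished sterol. When sterol in the endoplasmic reticulum is low, SCAP carries the SREBP transcription factors to the Golgi, where they are cut and released to act on the genes of the pathway, and the INSIG proteins hold SCAP back when sterol is plentiful. The brain makes its own cholesterol, since lipoproteins of the blood hardly cross the blood-brain barrier. Astrocytes and oligodendrocytes make much of it, and neurons remove the excess by hydroxylation.

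Library sizes after scaling lay between 28.1M and 34.2M reads, and all 6 libraries held ribosome-bound mRNA of the pathway. On the log2 CPM scale the mean level over the 6 libraries ran from 3.77 for *Ebp* to 8.46 for *Hmgcs1*. Divided by the length of the longest annotated transcript, so that genes can be compared, the highest level was that of *Cyp46a1*, the hydroxylase by which neurons clear cholesterol, at a log2 CPM per kilobase of 7.04, rank 368 of the 13873 genes with a length. *Hmgcs1*, which makes HMG-CoA, was next at 6.67 per kilobase (rank 522), followed by *Srebf2*, which encodes the SREBP that mainly drives cholesterol genes, at 5.70 (rank 1256). *Fdft1* and *Fdps* followed at 5.23 and 5.18, a gap smaller than the median SD of 0.0905 within a group. The other SREBP gene, *Srebf1*, more often linked to fatty acid synthesis, had a level of 3.32 per kilobase. At the low end were *Lss* at 2.35, *Hsd17b7* at 1.71 and the efflux transporter *Abca1* at 1.02 per kilobase. The isoform used in these cells is not known, so the levels per kilobase depend on the annotated length.

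**Figure D1:**
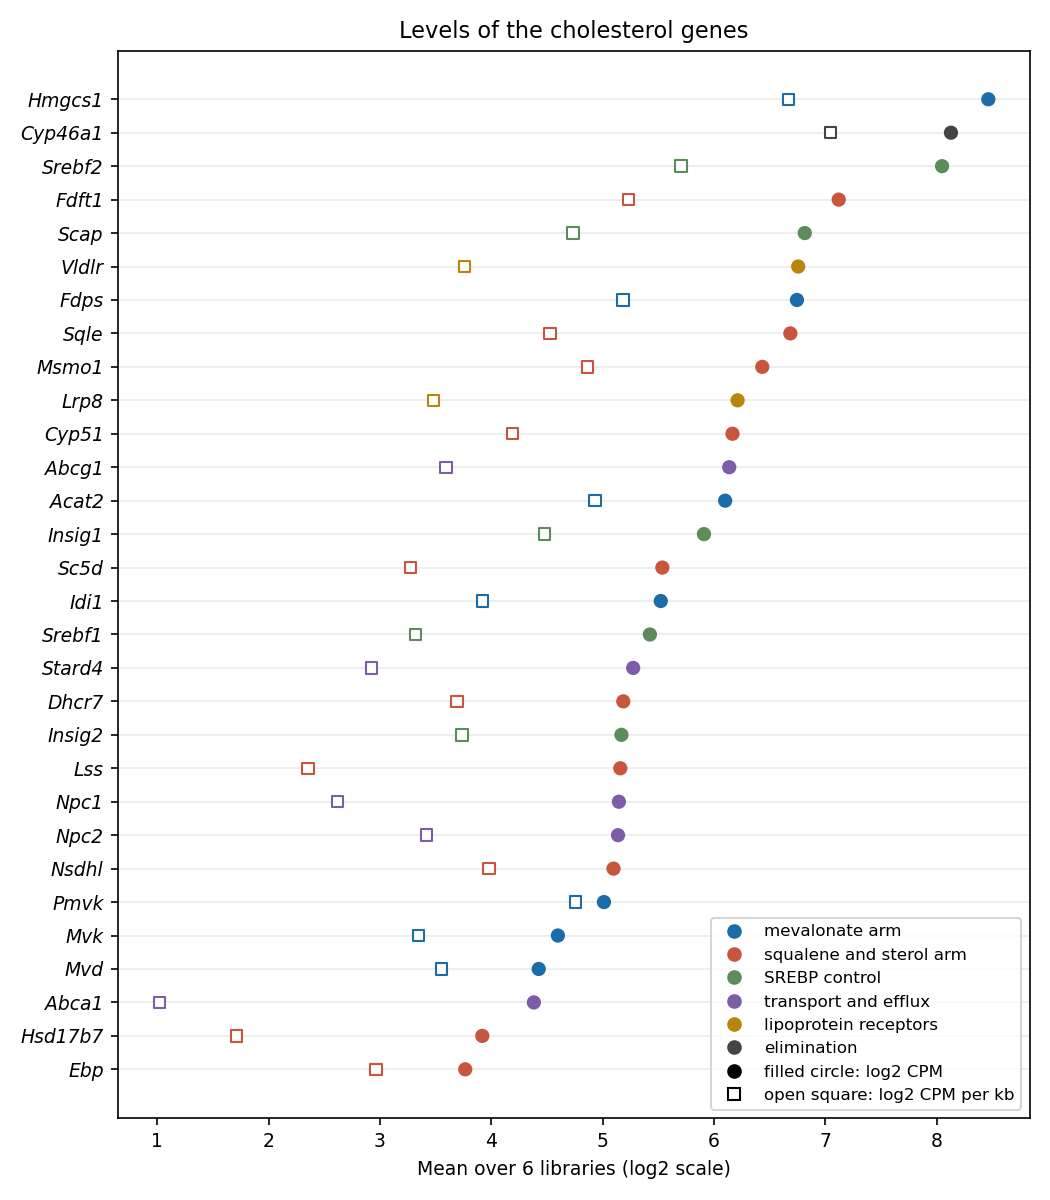
Mean level of each of the 30 cholesterol genes over 6 libraries, in order of log2 CPM (filled circles), with log2 CPM per kilobase of the longest annotated transcript (open squares), coloured by role. *Hmgcs1*, *Cyp46a1* and *Srebf2* stand to the right at 8.46, 8.13 and 8.05 log2 CPM, and *Cyp46a1* leads per kilobase at 7.04.

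Start-site windows of 250 bases before to 50 bases after each annotated start were taken from RefSeq (GRCm38.p6), where 24 of the 30 genes had 35 windows. Each was searched on both strands for the sterol regulatory element TCACNCCAC, to which SREBPs bind, for the box CCAAT, bound by NF-Y, and for the GC box GGGCGG, bound by Sp1-type factors. None of the 3 motifs contains another, and none of the marked matches below overlap. Only exact matches were counted, so near matches to an element were neither counted nor marked. The sterol element was found in 1 of the 35 windows (2.86%), that of *Hmgcs1*, against 1.24% of all 32851 windows. By gene this was 1 of 24 (4.17%), against 1.39% of listed genes. CCAAT was found in 21 of the 35 windows (60.0%), against 37.4% of all windows, and in 20 of the 24 genes (83.3%), against 42.8% of the 10794 listed genes with a window. GGGCGG was found in 26 windows (74.3%), against 35.7%, and in 22 genes (91.7%), against 68.5%. Such matches describe the letters of a window and say nothing of binding in these cells. The windows of 4 of the genes followed through the results are shown, since they differ in what they hold: *Hmgcs1* at chr13:119690101-119690400, *Insig1* at chr5:28071162-28071461, *Srebf2* at chr15:82147019-82147318 and *Nsdhl* at chrX:72918271-72918570, all on the + strand. Capitals mark the sterol element and CCAAT or, where the match is on the other strand, its reverse complement. The *Hmgcs1* window holds the sterol element from base -137 counted from the start site, with CCAAT matches starting at -237, -176, -45 and 11. *Nsdhl* also has 4 CCAAT matches, at -109, -20, 9 and 35, while *Insig1* has 1 at -216 and *Srebf2* has 1 at -135.
Hmgcs1: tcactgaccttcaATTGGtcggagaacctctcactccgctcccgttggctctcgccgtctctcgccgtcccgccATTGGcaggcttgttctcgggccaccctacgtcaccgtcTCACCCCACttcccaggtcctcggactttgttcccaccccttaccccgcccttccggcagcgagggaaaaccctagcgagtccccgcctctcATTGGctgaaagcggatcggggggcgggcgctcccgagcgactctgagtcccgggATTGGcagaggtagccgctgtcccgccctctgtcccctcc
Insig1: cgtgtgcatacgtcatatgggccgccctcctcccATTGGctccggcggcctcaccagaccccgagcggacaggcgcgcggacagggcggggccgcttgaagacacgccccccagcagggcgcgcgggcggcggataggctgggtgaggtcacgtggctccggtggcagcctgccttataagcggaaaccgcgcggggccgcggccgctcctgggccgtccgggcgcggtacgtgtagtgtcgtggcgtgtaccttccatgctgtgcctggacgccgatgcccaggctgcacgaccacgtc
Srebf2: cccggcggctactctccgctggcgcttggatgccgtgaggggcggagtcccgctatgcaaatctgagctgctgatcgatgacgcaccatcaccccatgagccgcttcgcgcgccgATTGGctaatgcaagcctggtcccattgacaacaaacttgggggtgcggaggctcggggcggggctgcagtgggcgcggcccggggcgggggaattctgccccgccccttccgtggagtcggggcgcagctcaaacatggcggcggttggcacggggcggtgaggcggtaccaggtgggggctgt
Nsdhl: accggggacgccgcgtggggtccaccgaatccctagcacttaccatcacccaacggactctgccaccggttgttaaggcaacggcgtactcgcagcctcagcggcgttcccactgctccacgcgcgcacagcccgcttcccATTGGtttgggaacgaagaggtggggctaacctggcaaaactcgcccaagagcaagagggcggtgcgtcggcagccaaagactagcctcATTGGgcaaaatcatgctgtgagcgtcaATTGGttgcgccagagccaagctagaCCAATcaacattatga

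E2 and OVX libraries were compared to ask how the ribosome-bound mRNA of *Kiss1* cells differs with estradiol. Differences are given as E2 minus OVX in log2 CPM, with the standard error (SE) from limma and p-values adjusted by the Benjamini-Hochberg method over the 13886 genes. None of the 30 cholesterol genes passed the threshold of an adjusted p under 0.05, against 40 of all genes (0.288%), and the smallest adjusted p among the 30 was 0.221. At an unadjusted p under 0.05 there were 8 of the 30, 6 higher with E2 and 2 lower, while 4.21% of all genes were higher and 4.34% lower by that criterion. A limma fit with voom weights also gave 0 past the adjusted threshold and 8 at an unadjusted p under 0.05. That number was 5 without OVX replicate 1, 4 without OVX replicate 2, 4 without E2 replicate 2 and 3 in a fit with no mean-variance trend. Of the 30 genes, 24 (80.0%) had a higher mean with E2, against 51.0% of all genes. The median difference was 0.10, against 0.0034 over all genes, and the differences ran from -0.22 to 0.26, the last a ratio of 1.19. Every E2 library lay above every OVX library for 7 of the 30 genes (6 after median centring), against 6.85% of all genes, and every E2 library lay below for 3, against 6.82%. Pathway genes share regulators and libraries, and the 30 were not taken as 30 independent measurements.

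**Figure D2:**
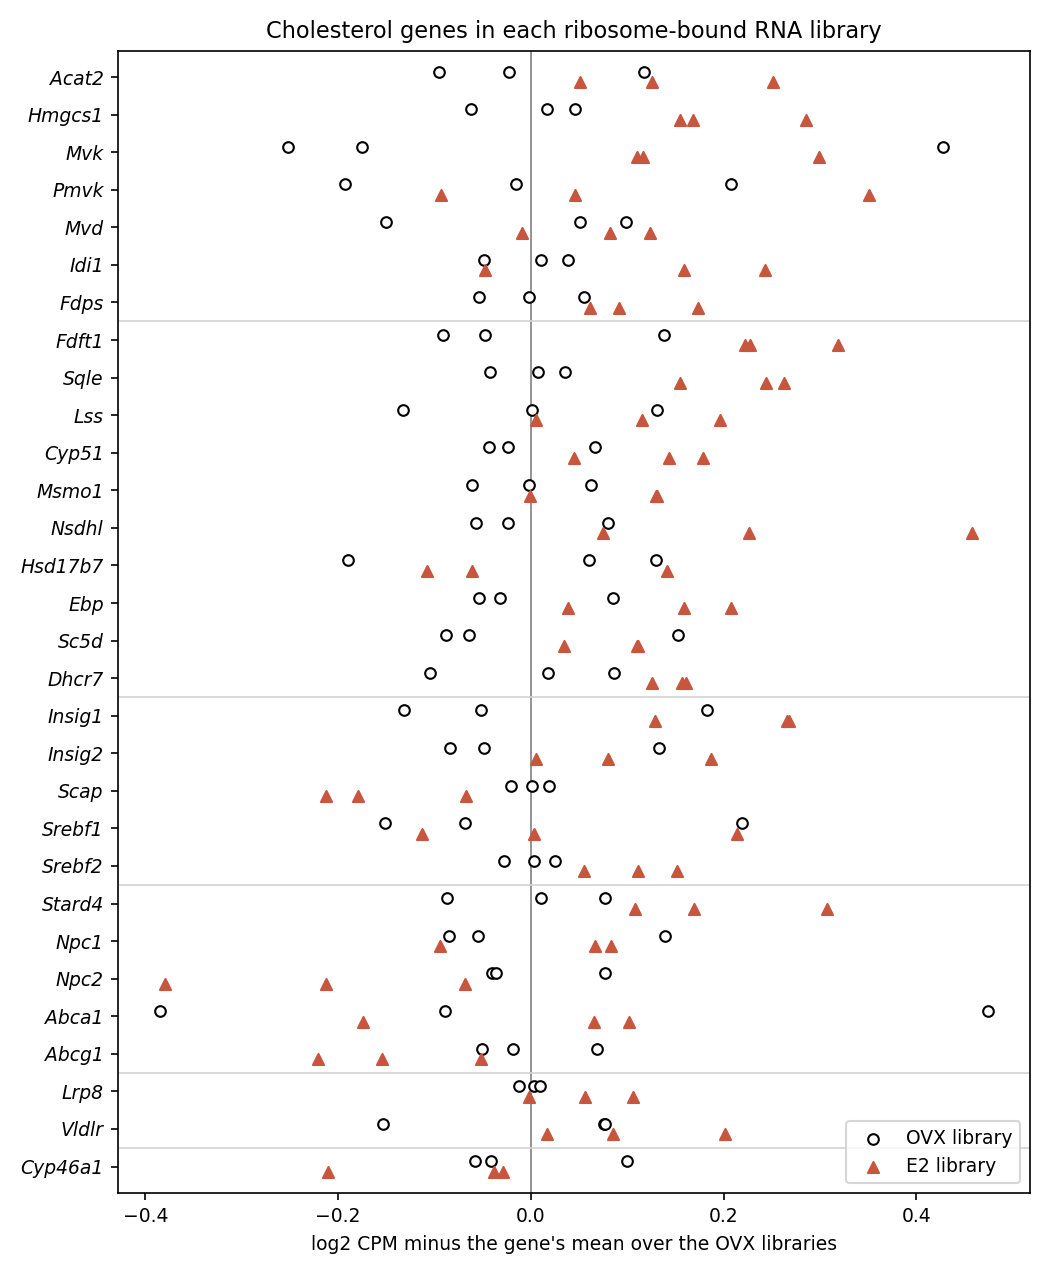
Log2 CPM of each cholesterol gene in each library, minus the gene's mean over the 3 OVX libraries (open circles, OVX; triangles, E2), with lines between the roles in the order mevalonate arm, squalene and sterol arm, SREBP control, transport and efflux, lipoprotein receptors and elimination. Triangles lie to the right of all circles for *Hmgcs1*, *Fdps*, *Fdft1*, *Sqle*, *Dhcr7*, *Srebf2* and *Stard4*, and to the left for *Scap*, *Npc2* and *Abcg1*.

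In the mevalonate arm, which makes the isoprenoid units of sterols, all 7 enzymes had a higher mean with E2 (except *Mvd* without OVX replicate 2 and *Pmvk* without E2 replicate 1), and none passed the threshold. The median difference was 0.12. *Hmgcs1*, the synthase of HMG-CoA, had a log2 CPM of 8.30, 8.38 and 8.41 in OVX and 8.52, 8.65 and 8.53 in E2 libraries. Its groups did not overlap, and the difference was 0.20 (SE 0.06, adjusted p = 0.264), or 1.15-fold. *Fdps*, which joins isoprenoid units into farnesyl diphosphate, had 6.74, 6.64 and 6.69 in OVX and 6.78, 6.86 and 6.75 in E2 libraries. The lowest E2 library of *Fdps* stood just above the highest OVX library, for a difference of 0.11 (SE 0.06, adjusted p = 0.689). The 5 other enzymes had overlapping groups. *Acat2*, a thiolase that joins acetyl-CoA units, had a mean level of 6.10 and a difference of 0.14 (SE 0.08). The kinases *Mvk* and *Pmvk* had levels of 4.60 and 5.01 with differences of 0.18 (SE 0.15) and 0.10 (SE 0.13). *Mvk* was highest of all in an OVX library, at 4.94 in OVX replicate 3, against 4.33 and 4.26 in the other OVX libraries. The decarboxylase *Mvd* had a level of 4.43 and a difference of 0.07 (SE 0.11), and the isomerase *Idi1* a level of 5.52 and a difference of 0.12 (SE 0.09). Averaged over the 7 enzymes, the log2 CPM was 5.71, 5.70 and 5.91 in OVX and 5.96, 5.93 and 5.82 in E2 libraries, so the groups overlapped through OVX replicate 3.

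The squalene and sterol arm, which commits farnesyl diphosphate to sterols, held the 2 cholesterol genes with the smallest p-values. Of its 10 listed enzymes 9 had a higher mean with E2 and none passed the threshold, with a median difference of 0.13. *Fdft1*, squalene synthase, had a log2 CPM of 6.90, 6.94 and 7.13 in OVX and 7.22, 7.31 and 7.21 in E2 libraries, a difference of 0.26 (SE 0.07, adjusted p = 0.221) or 1.19-fold. *Sqle*, which oxidizes squalene and is a slow step of the pathway, had 6.58, 6.53 and 6.61 in OVX and 6.73, 6.84 and 6.82 in E2 libraries, a difference of 0.22 (SE 0.06, adjusted p = 0.256). The E2 libraries of both genes lay above every OVX library, and without each library in turn and in the other alternatives the difference stayed between 0.21 and 0.32 for *Fdft1* and between 0.20 and 0.25 for *Sqle*. *Dhcr7*, the reductase of the last step in the route through lathosterol, had 5.20, 5.01 and 5.13 in OVX and 5.27, 5.27 and 5.24 in E2 libraries. Its groups did not overlap either, with a difference of 0.15 (SE 0.08, adjusted p = 0.687). *Nsdhl*, which takes part in removing the methyl groups of lanosterol, had 5.05, 4.95 and 4.91 in OVX and 5.05, 5.43 and 5.20 in E2 libraries. For *Nsdhl* E2 replicate 1 fell within the OVX range and E2 replicate 2 stood highest, and the difference was 0.25 (SE 0.10, adjusted p = 0.499).

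The remaining enzymes of the arm had overlapping groups. *Lss*, which closes the ring of lanosterol, had a mean level of 5.16 and a difference of 0.11 (SE 0.09). The demethylase *Cyp51* had a level of 6.17 and a difference of 0.12 (SE 0.07), and the methyl sterol oxidase *Msmo1* a level of 6.43 and a difference of 0.09 (SE 0.07). *Ebp*, a sterol isomerase, had a level of 3.77 and a difference of 0.14 (SE 0.13), and the desaturase *Sc5d* a level of 5.54 and a difference of 0.09 (SE 0.08). *Hsd17b7*, a ketone reductase of the demethylation steps, was the only enzyme of the 17 with a lower mean in E2 libraries, at a level of 3.92 and a difference of -0.0091 (SE 0.13) whose sign turned with each of 4 libraries left out in turn. Averaged over the 10 enzymes, the log2 CPM was 5.43, 5.43 and 5.44 in the OVX libraries (SD 0.0041) and 5.57, 5.60 and 5.55 in the E2 libraries. These means did not overlap, and the difference of 0.14 lay between 0.126 and 0.151 with each library left out. Over both arms together, 16 of 17 enzymes (94.1%) had a higher mean with E2, with a median difference of 0.12, and for the 13 other cholesterol genes the count was 8 and the median 0.03. The difference between these 2 groups of genes was not tested.

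**Figure D3:**
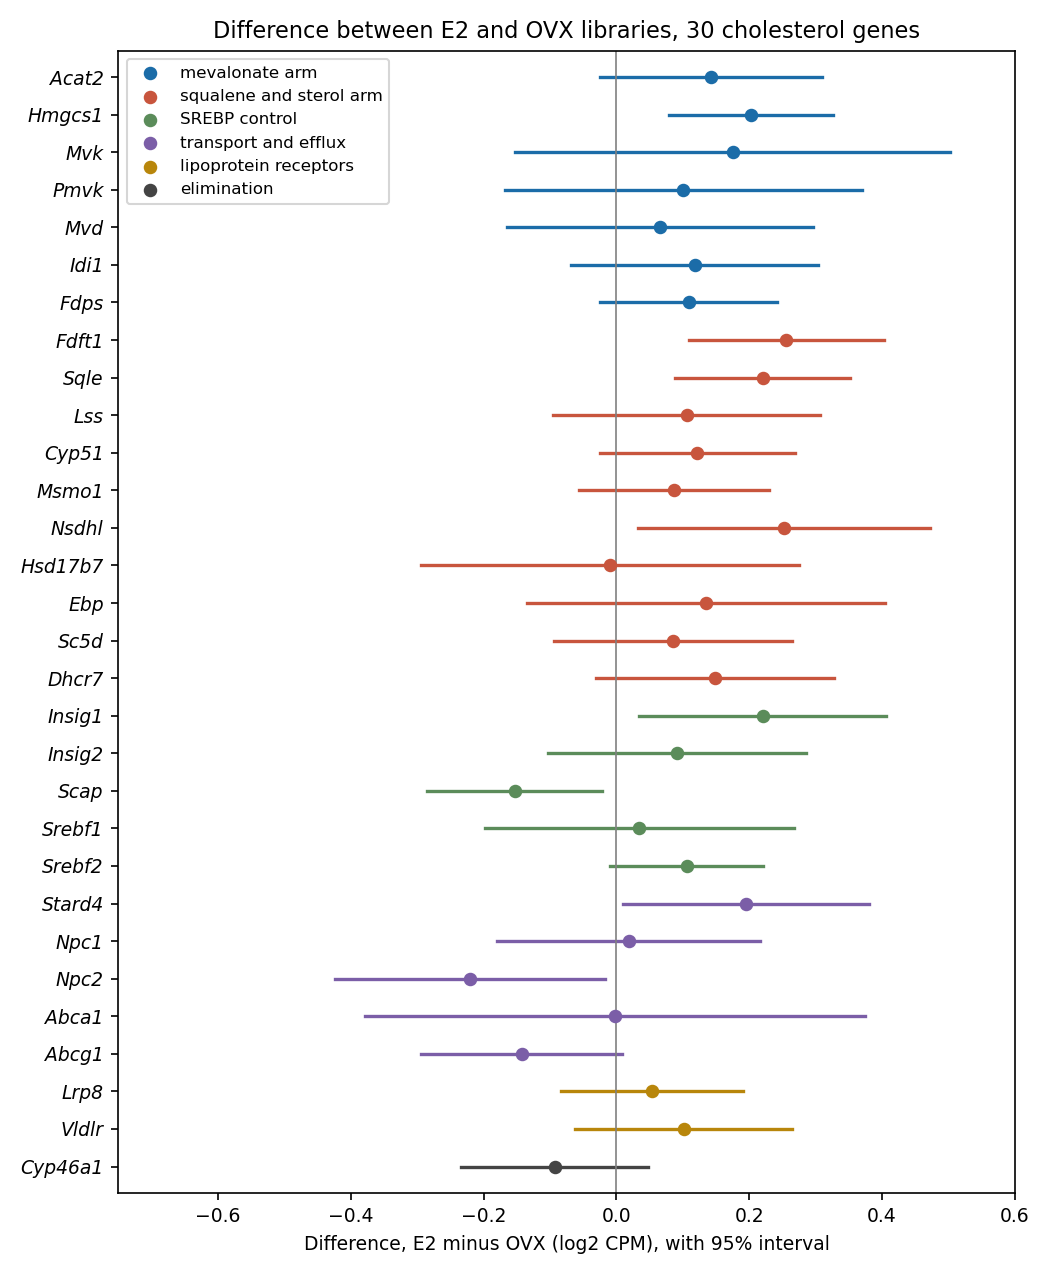
Difference between E2 and OVX libraries in log2 CPM for each cholesterol gene, with its 95% interval from limma, coloured by role; the vertical line marks no difference. Points of the 2 synthesis arms lie to the right of the line except *Hsd17b7* at -0.0091, and *Scap*, *Npc2* and *Abcg1* lie to the left at -0.15, -0.22 and -0.14.

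The genes of the SREBP control circuit went in both directions, 4 with a higher mean and 1 with a lower one, and none passed the threshold. *Insig1*, the sterol sensor partner that holds SCAP in the endoplasmic reticulum and is itself an SREBP target, had a log2 CPM of 5.67, 5.98 and 5.75 in OVX and 5.93, 6.07 and 6.06 in E2 libraries. OVX replicate 2 stood between the lowest and the next E2 library, and the difference was 0.22 (SE 0.09, adjusted p = 0.480) or 1.17-fold. *Scap*, the escort of the SREBPs, had 6.91, 6.89 and 6.87 in OVX and 6.68, 6.71 and 6.82 in E2 libraries. *Scap* was lower in all 3 E2 libraries, with a difference of -0.15 (SE 0.06, adjusted p = 0.493) and a ratio of 0.899. *Srebf2* had 7.97, 8.02 and 7.997 in OVX and 8.05, 8.11 and 8.15 in E2 libraries. The groups of *Srebf2* did not overlap, at a difference of 0.11 (SE 0.05, adjusted p = 0.616). *Srebf1* had a mean level of 5.42 and a difference of 0.03 (SE 0.11), and *Insig2*, the second INSIG, a level of 5.17 and a difference of 0.09 (SE 0.09), with overlapping groups for both.

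Among the 5 genes of transport and efflux, 2 had a higher mean with E2, and the median difference was -0.0023. *Stard4*, a soluble carrier of cholesterol between membranes and an SREBP target, had a log2 CPM of 5.09, 5.19 and 5.25 in OVX and 5.35, 5.48 and 5.28 in E2 libraries. All E2 libraries of *Stard4* lay above the OVX libraries, at a difference of 0.19 (SE 0.09, adjusted p = 0.552). *Npc2*, which passes cholesterol from lysosomal lipoprotein to NPC1, had 5.21, 5.32 and 5.21 in OVX and 5.18, 5.04 and 4.87 in E2 libraries. It was lower in all 3 E2 libraries, at a difference of -0.22 (SE 0.09, adjusted p = 0.537) and a ratio of 0.859, the lowest of the 30. *Abcg1*, an efflux transporter and a target of the sterol-sensing LXR receptors, had 6.157, 6.19 and 6.28 in OVX and 5.99, 6.155 and 6.05 in E2 libraries. The nearest libraries of *Abcg1* were almost level, and the difference was -0.14 (SE 0.07, adjusted p = 0.607). *Npc1*, the lysosomal membrane partner of NPC2, had a mean level of 5.15 and a difference of 0.02 (SE 0.09). *Abca1*, the other LXR-driven efflux transporter, had a level of 4.38 and a difference of -0.0023 (SE 0.18), with its highest value, 4.86, in OVX replicate 2 and its lowest, 4.00, in OVX replicate 3.

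The receptors *Lrp8* and *Vldlr*, which bind reelin as well as lipoproteins, had mean levels of 6.21 and 6.76 and differences of 0.05 (SE 0.06) and 0.10 (SE 0.08). *Cyp46a1* had a level of 8.13 and a difference of -0.09 (SE 0.07, adjusted p = 0.771), with 8.27, 8.12 and 8.13 in OVX and 7.96, 8.14 and 8.13 in E2 libraries. Its E2 replicate 1 stood below the others and OVX replicate 1 above them. The 95% interval of the difference held 0 for 22 of the 30 genes. The distance from the difference to either bound had a median of 0.18, and the bounds over the 30 genes reached from -0.42 for *Npc2* to 0.50 for *Mvk*.

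**Figure D4:**
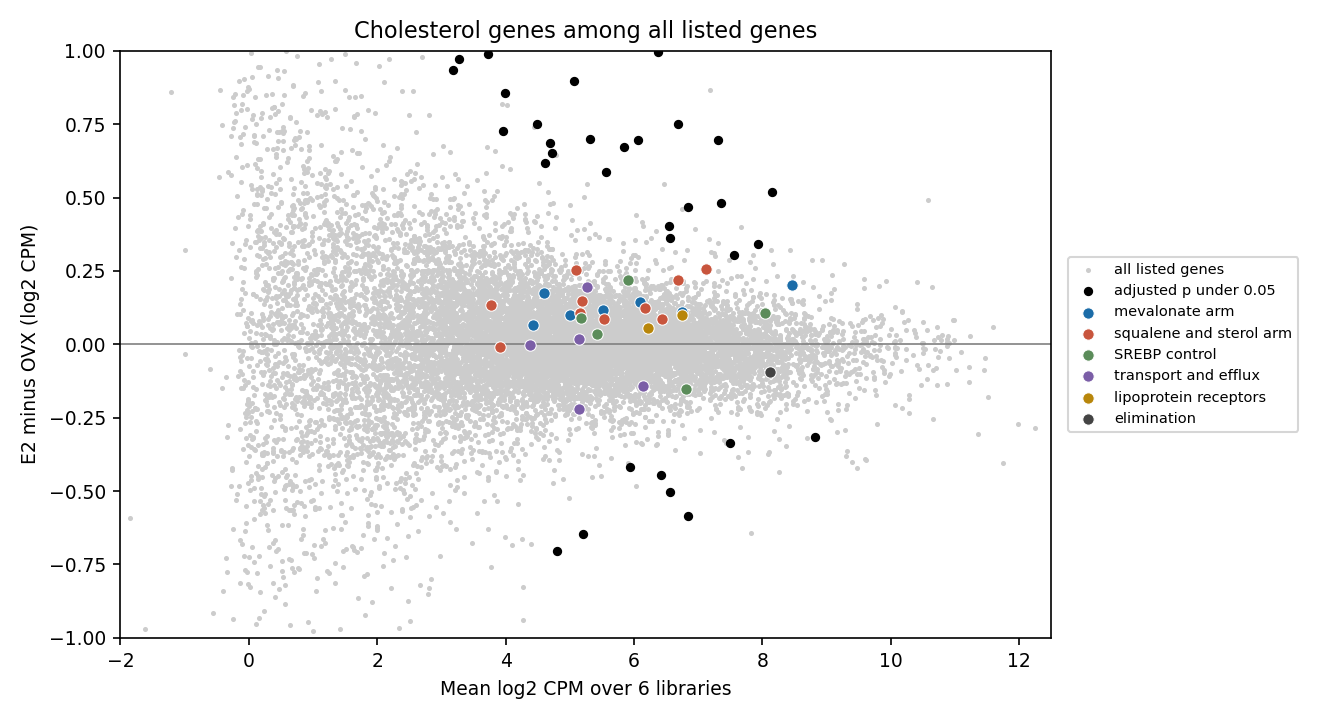
Difference between E2 and OVX libraries against the mean log2 CPM over 6 libraries for all 13886 genes (grey), the genes past the threshold (black) and the cholesterol genes (coloured by role); 98 genes with a difference beyond 1 in either direction are outside the axes. The cholesterol genes lie between -0.22 and 0.26, mostly above 0, within the cloud of genes of like level.

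Further genes of cholesterol handling and of fatty acid synthesis were read from the same fit. Of 51 other cholesterol genes 50 were listed, among them carriers of the oxysterol-binding and GRAMD1 families, the site proteases that cut SREBPs, and further ABC transporters. None passed the threshold, 28 (56.0%) had a higher mean with E2, against 51.0% of all genes, and the median difference was 0.01. At an unadjusted p under 0.05 there were 2 (4.0%), both higher, against 8.56% of all genes in either direction. Of the 27 fatty acid genes, several of which SREBPs also control, all were listed and none passed the threshold. A higher mean with E2 was found for 17 (63.0%), and the median was 0.06. At an unadjusted p under 0.05 there were 3 (11.1%), all higher. *Slc25a1*, which exports citrate from mitochondria as the source of acetyl-CoA, had a log2 CPM of 5.13, 5.19 and 5.32 in OVX and 5.40, 5.55 and 5.54 in E2 libraries, without overlap, a difference of 0.28 (SE 0.08, adjusted p = 0.308). The acyl-CoA synthetase *Acsl3* had a difference of 0.13 (SE 0.06, adjusted p = 0.545) and the desaturase *Fads2* 0.17 (SE 0.08, adjusted p = 0.552).

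Markers of other cell types were present in every library, and several of their lists also had higher means with E2. Among all genes, 51.0% had a higher mean with E2 and 8.56% had an unadjusted p under 0.05. Of 9 astrocyte markers 8 had a higher mean with E2, with a median difference of 0.08, and their summed level was 1490 to 1880 CPM in OVX and 1577 to 1916 CPM in E2 libraries. Of 9 oligodendrocyte markers 8 were higher, with a median of 0.10 and sums of 1648 to 2330 and 1809 to 2566 CPM. All 5 markers of oligodendrocyte precursors were higher, with a median of 0.22 and sums of 135 to 163 and 158 to 203 CPM, and 3 of them had an unadjusted p under 0.05, none past the threshold (smallest adjusted p = 0.0838). For endothelial and mural cells 7 of 8 were higher, with a median of 0.11 and sums of 164 to 310 and 195 to 253 CPM, and for microglia 2 of 8, with a median of -0.06 and sums of 128 to 159 and 123 to 144 CPM. The 8 neuron markers had a median of 0.0006, with 4 higher, and sums of 6275 to 6408 and 6263 to 6581 CPM. None of the markers of these 6 lists was at 0. The list for *Kiss1* and medial amygdala neurons (11 gene models of 10 genes) had a median of 0.31, with 10 higher, 8 at an unadjusted p under 0.05 and 2 past the threshold, *Kiss1* (higher) and the estrogen receptor *Esr1* (difference -0.70, SE 0.12, adjusted p = 0.0189). Its sums were 1199 to 1365 CPM in OVX and 1360 to 1590 CPM in E2 libraries. Within it *Slc17a6*, the vesicular glutamate transporter, had a difference of 0.40 (SE 0.09, adjusted p = 0.117). *Gad2*, which makes GABA, had 0.31 (SE 0.09, adjusted p = 0.251), and both were above the highest of the cholesterol genes. Groups overlapped for *Gad1* (0.15, SE 0.08), *Cartpt* (0.14, SE 0.22) and *Slc32a1* (0.11, SE 0.09). The part of these markers, and of the cells they mark, in the differences of the cholesterol genes was not tested.

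**Figure D5:**
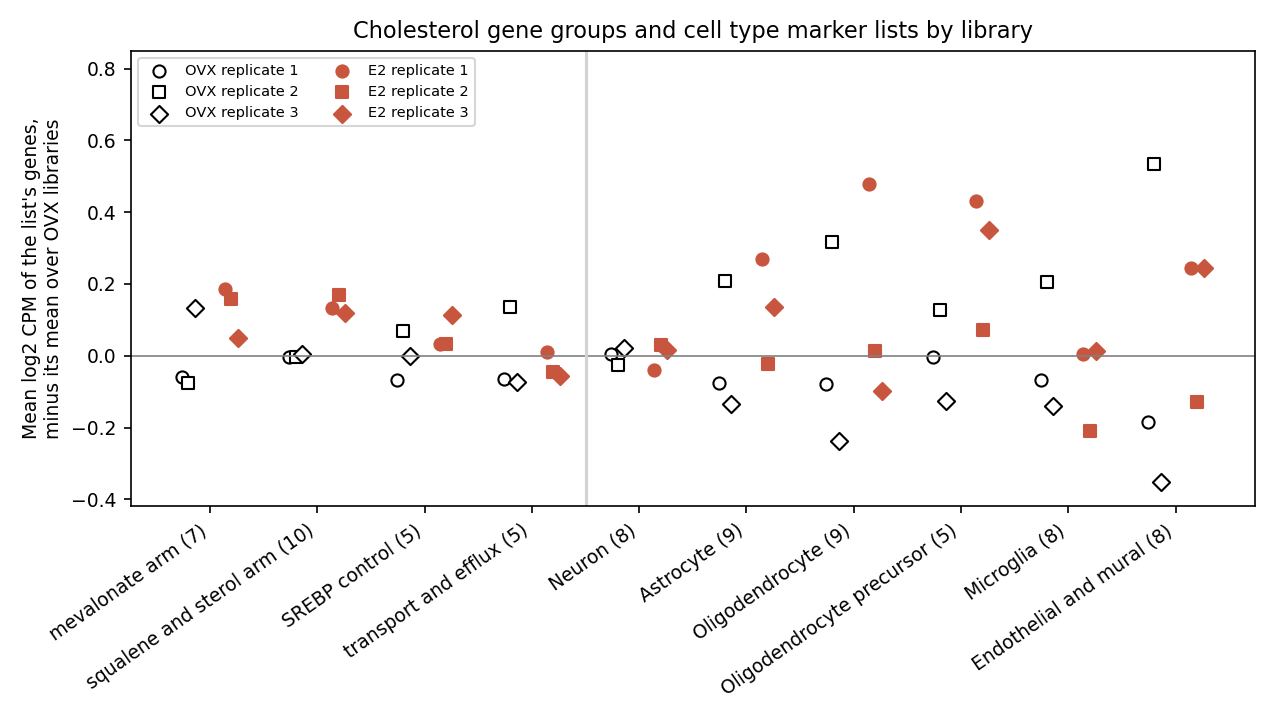
Mean log2 CPM over the genes of each list in each library, minus its mean over the OVX libraries, for 4 groups of cholesterol genes (left of the grey line) and 6 lists of cell type markers (right), with the number of genes in parentheses; open symbols are OVX and filled symbols E2, and shapes mark the replicate number. The E2 symbols of the squalene and sterol arm lie above all OVX symbols, 5.55 to 5.60 against 5.43 to 5.44 log2 CPM. Those of the astrocyte and oligodendrocyte lists overlap with OVX. The list for *Kiss1* and medial amygdala neurons, which includes both *Kiss1* gene models, is not drawn. Its means were 4.99, 5.43 and 5.57 in OVX and 6.20, 6.15 and 5.90 in E2 libraries, without overlap. Both *Kiss1* models enter these means, and the lower one had -5.82, -0.65 and 0.10 in OVX and 2.97, 3.18 and 2.65 in E2 libraries. The summed CPM of the list did overlap, at 1199 to 1365 in OVX and 1360 to 1590 in E2 libraries.

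Some of the values rest on reads that can belong to more than 1 gene, since the kit did not mark strand and several of these genes have near copies. Of all 75-base stretches of the longest transcript, 40.7% were also found in transcripts of other genes for *Acat2*, 29.1% for *Idi1*, 25.4% for *Fdft1*, 12.2% for *Hmgcs1*, 10.2% for *Scap* and 9.24% for *Fdps*, and at most 2.39% for *Cyp51*, *Lss*, *Insig1*, *Srebf1* and *Lrp8*. For the other 19 genes no stretch was shared. *Fdft1* (chr14:63145150-63179578, GRCm38) shares 774 exonic bases with *Ctsb*, a lysosomal protease at the higher level of 8.93 to 9.07 log2 CPM. The difference of *Ctsb* was -0.02 (SE 0.06, adjusted p = 0.959), and its part in the *Fdft1* values was not tested. Exonic bases are also shared with other protein-coding genes by *Fdps* (1124), *Npc1* (511), *Cyp51* (166) and *Srebf1* (109). *Sqle* (chr15:59315077-59331192), *Nsdhl*, *Dhcr7*, *Srebf2*, *Stard4* and *Npc2* share none.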

How the data were processed

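RNA-seq was performed on ribosome-bound RNA from the MeA of 6 pools, 3 OVX and 3 E2. The deposited values were log2 CPM. The authors checked read quality (FastQC 0.11.8), trimmed reads (Trimmomatic 0.38) and aligned them (STAR 2.6.0a). Quantification was by RSEM on GRCm38 with Ensembl annotation. Protein-coding genes with a mean CPM over 1 in a treatment group were kept. TMM scaling and voom, which adds 0.5 to each count, followed. Scaled library sizes, computed here from the lowest value of each library, were 28.1M to 34.2M reads. The authors' table of comparisons (fold changes and p-values) was not used.

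The log2 CPM were tested with limma 3.58.1 in R 4.3.3, with treatment as the only term and a mean-variance trend in place of the voom weights (prior degrees of freedom 9.55). The 2-sided p-values were corrected for 13886 genes (Benjamini-Hochberg), with 0.05 as the threshold. They set each difference against the spread between pools, with a variance drawn in part from other genes of like level. An exact permutation test of 3 against 3 libraries cannot give a p below 0.1 and was not used. The fit was tested on simulated data. Levels per kilobase used the longest transcript in GENCODE mouse release 21 (GRCm38), and start-site windows came from RefSeq.

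The genes and lists were chosen with earlier results of these data known. Every listed cholesterol gene is named. Values in every library are given for those past the threshold, those without overlap between groups and the 8 with the smallest p, and after the values were seen also for *Cyp46a1* and *Slc25a1*. Of the other lists, genes with an unadjusted p under 0.05 are named, and some that this rule picks are not reported here. *Ctsb*, *Esr1*, *Slc17a6*, *Gad2*, *Gad1*, *Cartpt* and *Slc32a1* were named after their values were seen.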

Additional observations from a re-analysis of the deposited data

How the results depend on the processing

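The comparison was repeated under 15 alternatives: no trend, voom weights from rebuilt counts, median centring, quantile normalization, log2 of CPM plus 1, a filter of CPM above 1 in all libraries of a group or of a mean log2 CPM of at least 1, robust empirical Bayes, a replicate block, and each library left out. None of the 30 cholesterol genes and none of the other cholesterol and fatty acid genes passed the threshold in any of them, with a smallest adjusted p of 0.0827 for the 30 (0.221 in the fit reported). Among all genes 40 passed, 0 with no trend, and 20 to 66 with a library left out (21 without OVX replicate 1, 26 without E2 replicate 1, 20 without E2 replicate 2 and 66 without E2 replicate 3). Of the 30 genes, 24 kept their direction in all 15 alternatives. The other 6 changed sign only with a library left out, and the cause was not tested. Over the 6 such fits the difference ran from -0.1041 to 0.0557 for *Hsd17b7*, -0.0549 to 0.1445 for *Srebf1*, -0.0239 to 0.0884 for *Npc1*, -0.1949 to 0.2351 for *Abca1*, -0.0094 to 0.1151 for *Mvd* and -0.0238 to 0.2048 for *Pmvk*. The number of the 30 genes with a higher mean was 24 in the other alternatives and 22 to 26 with a library left out, and their median difference 0.08 to 0.13. Without overlap between groups there were 6 or 7 higher and 2 or 3 lower genes after other scalings. These counts, the median and the arm mean were chosen after the data were seen.

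Libraries with the same replicate number did not deviate together (correlations of -0.112, -0.156 and -0.0977 across genes), so the numbers were not taken as pairs. With the replicate number as a block, 35 of all genes and 0 of the 30 passed the threshold, 0 of the other cholesterol and fatty acid genes passed, and 6 of the 30 had an unadjusted p under 0.05. With 3 pools per group the median SE of a difference was 0.08 for the 30 genes and 0.11 for all genes.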
